A study of Bos taurus with 16 samples.

Results

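The translation factors followed here are the proteins that start and extend a polypeptide on the ribosome, as far as their names appear on a bovine gene expression array. A gene was taken as a member when the gene name of its probe, or the symbol in brackets in the probe description, began with EIF or EEF and a number. EIF2AK2 was left out. The rule found 50 probes for 47 genes, out of 21475 probes and 20599 gene names on the array, and the brightest probe stood for a gene with more than 1. It also took in AGO1, AGO3 and AGO4, which bind small RNAs and carry the old names EIF2C1, EIF2C3 and EIF2C4.

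The cells were CD14+ cells sorted by flow cytometry from 2 tissues of the same pregnant cows, the endometrium between the placentomes, dispersed with enzymes into what the labels call stromal cells, and the mononuclear fraction of peripheral blood. The CD14 protein, found on monocytes and macrophages, helps them sense lipopolysaccharide of bacteria. There were 4 abattoir cows, at day 164 (animal 1), 239 (animal 2), 242 (animal 3) and 248 (animal 4) of pregnancy, with no treatment, and the breed and age of the animals were not given in the sources used here. The comparison asked how transcripts differ between the cells resident in the endometrium and those in blood of the same animal. RNA of each tissue was amplified, labelled with Cy3 or Cy5 and hybridised with the RNA of the other tissue, on 2 arrays per animal. Only 4 animals limit the precision of every value below.

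Initiation is the step at which most control of translation acts. The eIF4F proteins bind the capped 5′ end of an mRNA, eIF2 brings the initiator tRNA to the small ribosomal subunit, eIF3 is the scaffold on which these parts meet, and eIF5 and eIF5B release the factors once a start codon is found and the large subunit joins. The eEF1 proteins then deliver each aminoacyl-tRNA and eEF2 moves the ribosome along. In macrophages these steps are regulated by kinases and by binding proteins, among them the eEF2 kinase, the kinases of eIF2 and the eIF4E-binding proteins.

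Each value is a normalized log2 intensity from the deposited table, averaged over the spots of a probe and over the 2 technical replicates of an animal and tissue. A ratio is the difference endometrium minus blood within an animal on that log2 scale, given as the mean ± SD of 4 animals. A level describes 1 probe and is not set against the level of another probe to compare amounts of transcript. The sign rests on the dye that the labels name for each sample. Each column of the table equalled that dye's signal on the array whose scanner output is filed under the second technical replicate when the column is the first, and under the first when it is the second. Taken by the filing of the scanner output, the sign would be the opposite in the 3 animals whose dyes were swapped. With the labelled dyes, the ratio of the placental lactogen probe CSH1 was 4.81, 5.68 and 6.16 in these animals (1, 2 and 4) and 5.17 in animal 3, whose dyes were not swapped, so that all 4 had the same sign.

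The 60-base probes of the members that the results turn on are printed from the array's own annotation, in lower case. They show which stretch of a transcript was measured, and whether it is coding or untranslated is not given there. EEF2K, EIF3F, EIF4ENIF1 and EIF5B had the largest ratios with their brightest probe, EIF4EBP1 and EIF2S2 are described by animal below, and EEF1A1 is the member whose mean ratio lay nearest to 0.
EEF2K: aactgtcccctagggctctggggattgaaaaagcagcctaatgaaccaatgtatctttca
EIF3F: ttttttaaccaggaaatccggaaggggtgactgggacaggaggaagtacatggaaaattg
EIF4ENIF1: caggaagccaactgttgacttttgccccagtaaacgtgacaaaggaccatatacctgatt
EIF5B: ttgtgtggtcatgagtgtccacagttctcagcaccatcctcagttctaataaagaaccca
EIF4EBP1: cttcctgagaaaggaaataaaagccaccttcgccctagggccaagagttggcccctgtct
EIF2S2: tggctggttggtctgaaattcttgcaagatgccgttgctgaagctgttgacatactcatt
EEF1A1: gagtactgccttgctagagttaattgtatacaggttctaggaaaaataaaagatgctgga

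There were 3 members with 2 probes, and both probes of each are shown because their sequences differ. The probes of a pair shared no run longer than 6 bases on the same strand.
EIF2S3, brighter: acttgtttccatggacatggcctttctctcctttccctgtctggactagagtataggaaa
EIF2S3, other: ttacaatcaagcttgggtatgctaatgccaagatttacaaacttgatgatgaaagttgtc
EIF4A1, brighter: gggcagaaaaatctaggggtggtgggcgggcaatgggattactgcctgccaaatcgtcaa
EIF4A1, other: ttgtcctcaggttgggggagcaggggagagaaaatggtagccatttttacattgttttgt
EIF5, brighter: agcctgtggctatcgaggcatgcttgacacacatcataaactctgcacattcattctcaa
EIF5, other: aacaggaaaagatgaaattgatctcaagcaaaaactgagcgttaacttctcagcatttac

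Of the 47 genes, 46 were tested with limma, since both spots of their probe were well above background in 4 or more of the 8 channels of endometrium, of blood or of both. EEF1A2, the elongation factor of muscle and nerve, did not, with 1 of 8 endometrial and 2 of 8 blood channels. All 16 channels were well above background for 44 members. No member passed an adjusted p of 0.05 (limma, Benjamini-Hochberg over 16653 probes), with or without a fold change over 2, and the lowest adjusted p was 0.218, for EEF2K. Of all probes tested, 1.35% passed, and each of these 224 probes also passed the fold change. At an unadjusted p of 0.05, 1 member was higher in endometrium (EEF2K) and 1 was higher in blood (EIF3F), 2.17% of the members in each direction, beside 7.98% and 8.05% of all probes. An analysis of variance after the study's methods, without pooling of variances over probes, had 0 of all 16653 probes at the adjusted p, members included. The same 2 genes passed its unadjusted p, beside 4.49% of all probes higher in endometrium and 5.38% higher in blood.

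Ratios of the members were small. The mean ratio was below 0 for 30 members, or 65.2%, beside 56.7% of all probes. The median of the members' mean ratios was −0.30, and that of all probes was −0.14. The members' medians taken within each of the 4 animals, given below, had an SD of 0.31. With each animal centred on the median of all probes, the median of the members was −0.17, and without animal 3 it was −0.06. In 31 members the mean ratio was within 1.5-fold. The bin from −0.5 to 0 held 34.8% of the members and 23.0% of all probes, and the bin from 0 to 0.5 held 21.7% and 18.8%. The members' probes were also brighter, with a median level of 12.83 beside 9.40 for all probes tested. The part of brightness in the smaller ratios was not tested. The mean ratio was over 2-fold higher in blood in 4 members, EIF4ENIF1, EIF3F, EIF5B and EIF2S3, and over 2-fold higher in endometrium in 2, EEF2K and AGO4. Of all probes, 17.8% were over 2-fold higher in blood and 14.8% were over 2-fold higher in endometrium.

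**Figure D1:**
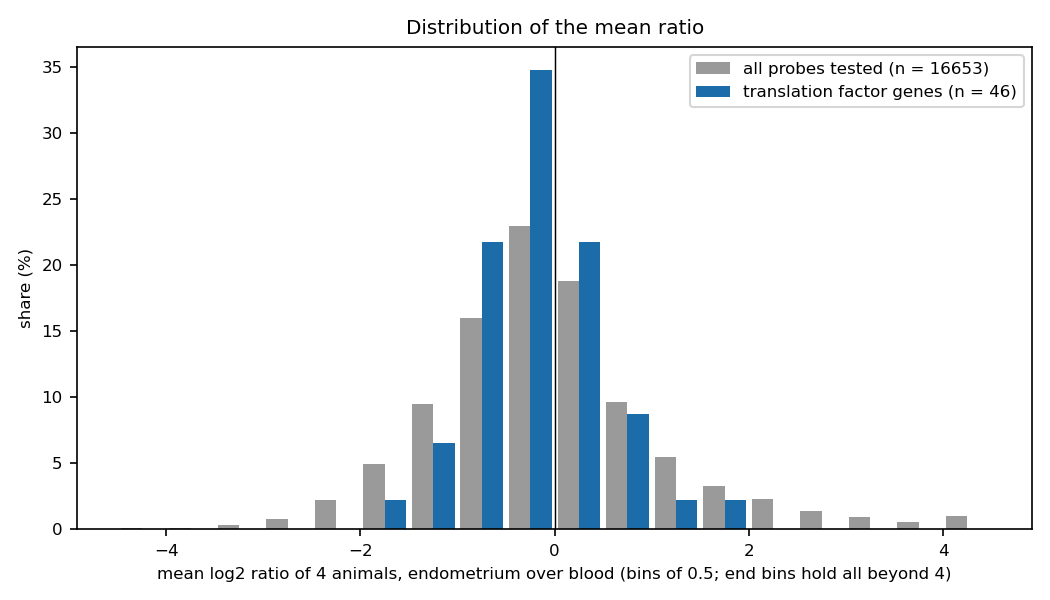
Share of all 16653 probes tested (grey bars) and of the 46 translation factor genes tested (blue bars), in percent, by mean log2 ratio of endometrium over blood in bins of 0.5. The members lie between −1.71 and 1.80, and 34.8% of them lie in the bin just below 0.

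The sign of the ratio was the same in 4 of 4 animals for 13 members. It was higher in blood in 9 members, 19.6% beside 15.2% of all probes, and higher in endometrium in 4 members, 8.70% beside 9.82% of all probes. The 9 were EIF4ENIF1, EIF3F, EIF2S3, EIF2S2, EIF4E2, EIF4G1, EIF1B, EIF5A and EIF4E. The 4 were EEF2K, AGO4, EEF1D and AGO1. The lowest level of 1 tissue was above the highest level of the other in 1 member each way, EEF1D higher in endometrium and EIF2S2 higher in blood. This held for 2.70% of all probes higher in endometrium and for 3.37% higher in blood.

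The animals differed in how far the members spread. In animal 3 the SD of the ratio over the 46 members was 1.49, and in animals 1, 2 and 4 it was 0.75, 0.96 and 0.54. Over all probes it was 2.37 in animal 3 and 1.39 to 1.63 in the others. Over the 11186 probes that were well above background in all 16 channels it was 1.89 in animal 3 and 0.97 to 1.37 in the others. The median of the members in animals 1 to 4 was −0.25, 0.20, −0.55 and −0.11, beside −0.24, −0.10, −0.13 and −0.05 for all probes. The largest difference between the ratios of the 2 technical replicates of an animal was 0.23 in the median member and 1.71 in AGO3, the highest.

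**Figure D2:**
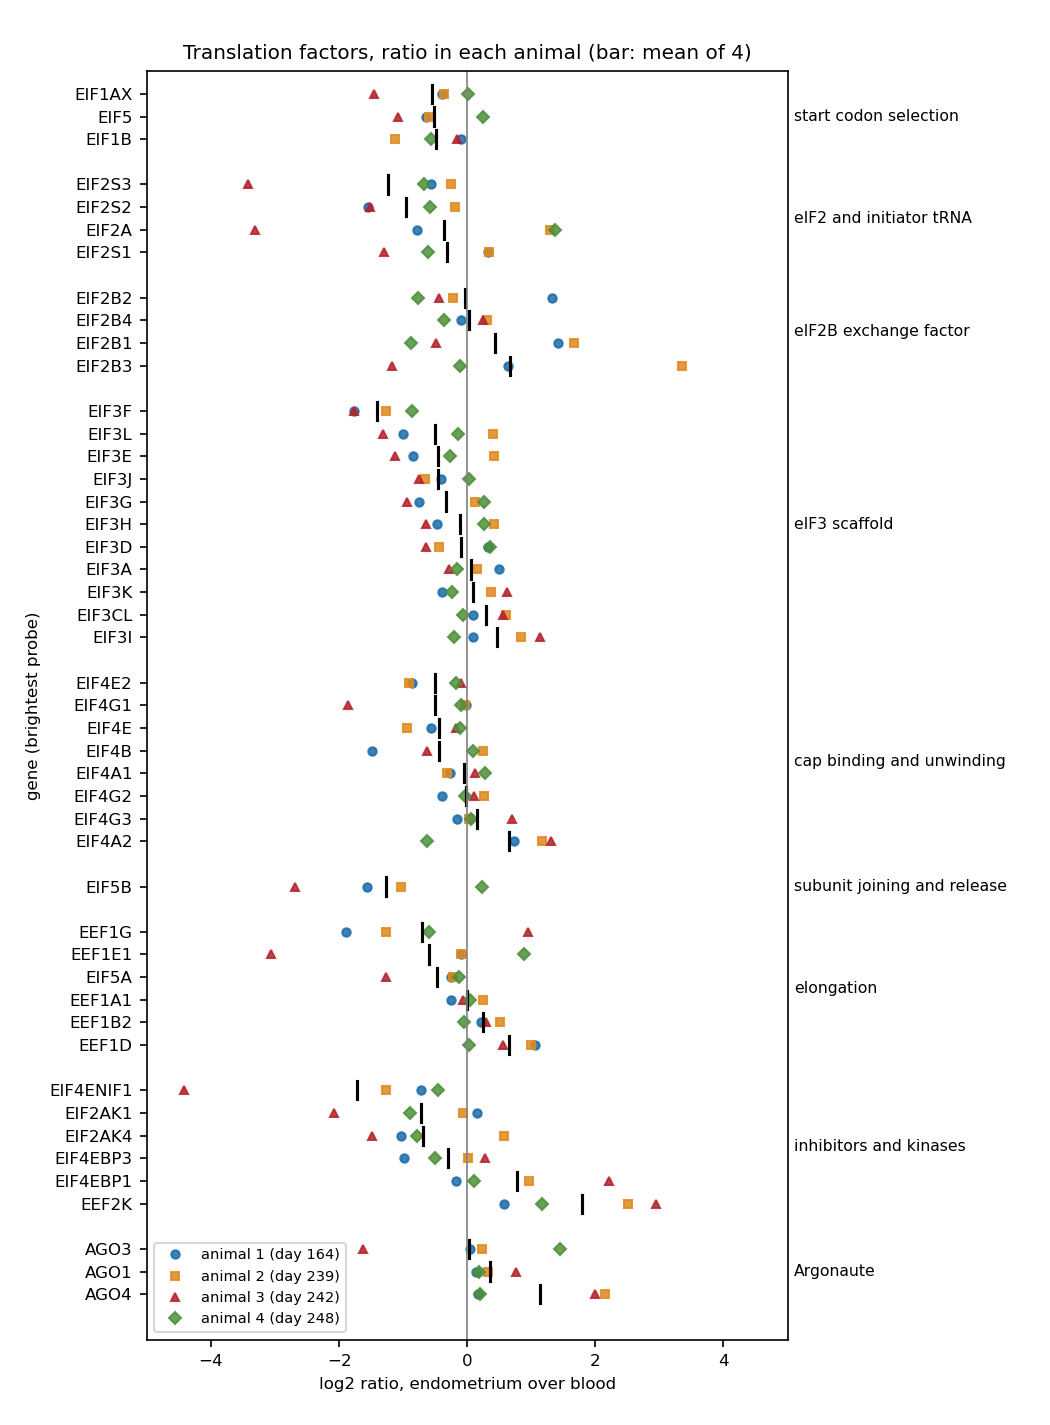
Log2 ratio of endometrium over blood for each of the 46 members tested, 1 symbol per animal and a bar for the mean, grouped by role. The red triangles of animal 3 are the outermost values for EIF4ENIF1 (−4.42), EIF2S3 (−3.42) and EEF1E1 (−3.07).

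The levels of the defining markers were read beside these ratios. In both tissues every channel was well above background for CD14, and its ratios in animals 1 to 4 were −2.09, 0.31, 0.65 and 0.44. Of 10 monocyte and macrophage markers, 7 had a mean ratio above 0. The log2 of the summed intensity of the 10 ran from 15.5 to 18.6 in endometrium and from 14.2 to 18.7 in blood. Such a log2 sum rests mostly on the brightest probes. ITGAM was well above background in 2 of 8 endometrial and 4 of 8 blood channels. Trophoblast markers stood apart. Of 12 listed genes, which share 11 probes, 8 probes were tested and 6 passed the adjusted p (limma) with higher levels in endometrium. The mean ratio was below 0 for PAG1, at −2.10 with 3 of 4 animals below 0, and for CYP19A1, at −0.15, and neither passed. PAG1 thus lay opposite to PAG7 and PAG10, at 4.63 and 4.88. The paper names PAG1B among the placental genes higher in endometrium. Whether the probe listed here as PAG1 measures a placental glycoprotein was not tested. The log2 of the summed intensity of the 11 probes, PAG1 among them, was 15.5 to 17.2 in endometrium and 11.5 to 13.2 in blood. The probes of CDX2, GCM1 and PAG2 were well above background in no channel of either tissue. Of 12 epithelial markers, 5 passed and all 12 had higher mean levels in endometrium, with log2 sums of 13.5 to 17.3 and of 10.7 to 12.9 in blood. Of 9 stromal markers tested, 2 passed and all 9 were higher, with log2 sums of 8.68 to 17.9 and of 7.92 to 11.9 in blood. Of 6 endothelial markers none passed, and 4 were higher. All 7 B cell markers had a mean ratio below 0 and 1 passed, and of 5 granulocyte markers tested, all had a mean ratio below 0 and 1 passed. The granulocyte median in animals 1 to 4 was −4.77, −3.39, 1.08 and 0.19, and S100A8, S100A9 and S100A12 were higher in endometrium in animals 3 and 4. Of 10 T and NK cell markers none passed, and 7 had a mean ratio above 0. The median of the 10 in animals 1 to 4 was 2.30, 0.24, −0.60 and −0.17. Of 10 immediate early genes none passed, and 9 were higher in endometrium. The part of these cells and responses in the ratios of the translation factors was not tested. In such samples fewer cells of a type and less RNA per cell cannot be told apart.

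The binding proteins and kinases that hold translation back included the highest and the lowest mean ratio of the 46 members tested, those of EEF2K and EIF4ENIF1. EEF2K phosphorylates eEF2 and slows elongation. Its level in endometrium was 13.56, 14.06, 14.51 and 12.82 in animals 1 to 4, and in blood it was 12.98, 11.56, 11.56 and 11.65. It was higher in endometrium in each animal, and the tissues overlapped because blood of animal 1 lay above endometrium of animal 4. The ratio was 0.57, 2.50, 2.94 and 1.17, with a mean of 1.80 ± 1.11 (SD, n = 4), a 3.47-fold difference with a 95% interval of the fit from 0.46 to 3.13 on the log2 scale (limma, adjusted p = 0.218). Under 16 other settings, which include leaving out each animal, the ratio stayed between 1.42 and 2.21 and the adjusted p between 0.0884 and 0.491. A further EEF2K probe, which carries its name outside the columns of the rule, was well above background in 0 of 8 channels of each tissue and was not tested.

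EIF4EBP1 keeps eIF4E from the cap complex until it is phosphorylated. Its level in endometrium was 12.73, 12.15, 14.30 and 10.93 in animals 1 to 4, and in blood it was 12.91, 11.18, 12.09 and 10.82. Both tissues were low in animal 4, and the ratio ran from −0.18 in animal 1 to 2.22 in animal 3. The mean was 0.78 ± 1.07 (SD, n = 4, limma adjusted p = 0.526), and it was 0.30 without animal 3. EIF4EBP2, a protein of the same kind named outside the rule, had a mean ratio of 0.38 ± 0.72. The probe listed as EIF4EBP3 is given to ANKHD1 by the reference table, and its mean ratio was −0.30 ± 0.56.

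EIF4ENIF1 carries eIF4E into the nucleus and into cytoplasmic bodies of silenced mRNA. Its level in endometrium was 10.21, 11.33, 8.11 and 11.79 in animals 1 to 4, and in blood it was 10.93, 12.60, 12.53 and 12.25. It was higher in blood in each animal, by the widest margin in animal 3. The ratio was −0.72, −1.27, −4.42 and −0.45, with a mean of −1.71 ± 1.84 (SD, n = 4, limma adjusted p = 0.319) and a 95% interval from −3.46 to 0.03. Without animal 3 the mean was −0.81 (adjusted p = 0.616, within a range of 0.192 to 0.616 over 16 settings).

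The kinases of eIF2 lower the supply of initiator tRNA under stress. EIF2AK1, the kinase that responds to lack of haem, had ratios of 0.15, −0.07, −2.09 and −0.89 (mean −0.72 ± 1.01, limma adjusted p = 0.548), and its level in animal 1 was low in both tissues, at 8.94 in endometrium and 8.79 in blood, where the others were at 9.52 to 11.30 and 11.37 to 11.62. EIF2AK4, the kinase that responds to lack of amino acids, had ratios of −1.03, 0.57, −1.49 and −0.78 (mean −0.68 ± 0.88, limma adjusted p = 0.553). Other EIF2AK4 probes, named in the reference table only, had mean ratios of −0.57 and 0.08. They were brighter, with mean levels of 10.8 and 10.6 beside 8.2 for the member's probe. With the probes of the gene averaged the mean ratio was −0.39. EIF2AK3, the kinase of the endoplasmic reticulum, is named outside the rule, and its brighter probe had ratios of −0.32, −0.60, −0.97 and −0.59 (mean −0.62 ± 0.27, limma adjusted p = 0.522). Of the 6 binding proteins and kinases tested, 4 had a mean ratio below 0 and 2 above it.

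**Figure D3:**
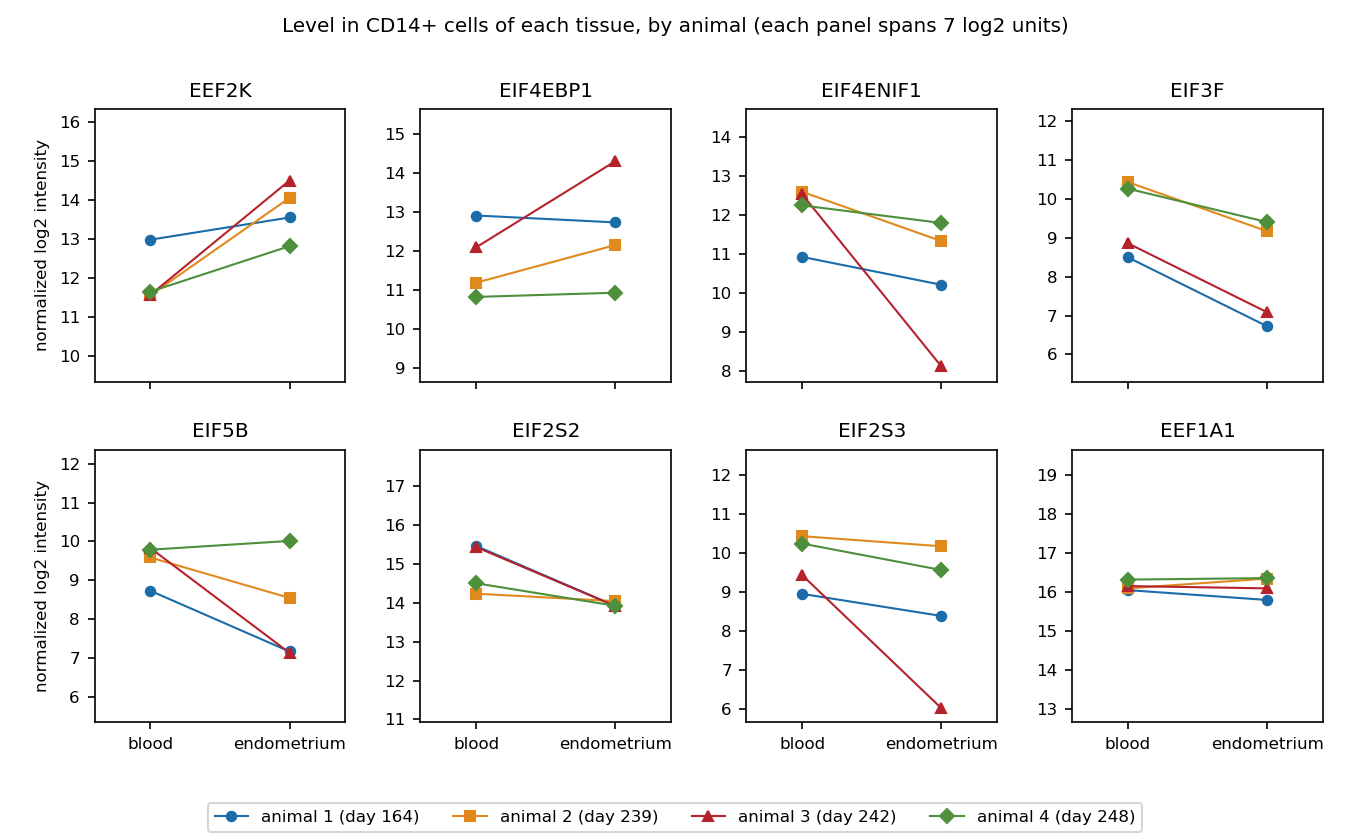
Normalized log2 level of 8 members in blood and endometrial CD14+ cells, with a line for each animal and 7 log2 units in every panel. EEF2K is higher in endometrium in each animal, EIF3F and EIF4ENIF1 are higher in blood in each, and EEF1A1 stays between 15.80 and 16.36.

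The eIF3 scaffold was the largest role, with 11 members tested. EIF3F, a subunit with an MPN domain, had a level in endometrium of 6.72, 9.16, 7.08 and 9.40 in animals 1 to 4, and in blood of 8.49, 10.43, 8.85 and 10.26. Animals 1 and 3 were low in both tissues, so the tissues overlapped, and blood was higher in each animal. The ratio was −1.77, −1.26, −1.77 and −0.86, with a mean of −1.42 ± 0.44 (SD, n = 4), which is 2.67-fold higher in blood, with a 95% interval from −2.49 to −0.34 (limma, adjusted p = 0.226). Under 16 other settings the ratio stayed between −1.60 and −0.81 and the adjusted p between 0.108 and 0.574. The mean ratios of the other 10 subunits ran from −0.51 for EIF3L to 0.47 for EIF3I, with 6 below 0 and 4 above. EIF3K, the brightest subunit probe, had ratios of −0.40, 0.38, 0.62 and −0.24, with a mean of 0.09 ± 0.49, which was below 0 when animal 2 or animal 3 was left out. EIF3E, EIF3L, EIF3G and EIF3H were higher in endometrium in animal 2 and higher in blood in animals 1 and 3. The probe listed as EIF3S8 is named EIF3CL in the reference table, a near-identical copy of EIF3C, and cannot tell the copies apart by name. Its mean ratio was 0.30 ± 0.33.

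The 3 subunits of eIF2 are EIF2S1, which the kinases phosphorylate, EIF2S2, and EIF2S3, which binds GTP and the initiator tRNA. EIF2S2 was the only member whose levels separated the tissues with blood on top. In endometrium it was 13.91, 14.04, 13.91 and 13.92 in animals 1 to 4, and in blood it was 15.46, 14.23, 15.43 and 14.50. The mean ratio was −0.96 ± 0.68 (SD, n = 4, limma adjusted p = 0.377), and the largest difference between its technical replicates was 0.07. EIF2S3 was 8.39, 10.18, 6.02 and 9.57 in endometrium and 8.96, 10.44, 9.44 and 10.25 in blood. Animal 3 gave a ratio of −3.42 and the others −0.57, −0.26 and −0.68, for a mean of −1.23 ± 1.47 (limma adjusted p = 0.394) and a mean of −0.50 without animal 3. Its other probe was well above background in no channel. EIF2S1 had ratios of 0.33, 0.34, −1.30 and −0.61, and its mean of −0.31 ± 0.80 became 0.02 without animal 3. A further EIF2S1 probe outside the rule had a mean of −0.63 ± 1.04. EIF2A, a factor for initiator tRNA apart from eIF2, was dim, with ratios from −3.32 to 1.37.

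The eIF2B subunits reload eIF2 with GTP. All 4 tested had mean ratios between −0.03 and 0.67 and none had the same sign in 4 animals. EIF2B3 ran from 3.35 in animal 2 to −1.17 in animal 3. EIF2B1, which the reference table gives to DDX55, was at 1.42 and 1.66 in animals 1 and 2 and at −0.48 and −0.89 in animals 3 and 4. EIF2B4, the brightest, had a mean of 0.02 ± 0.31, a sign that turned without animal 2, without animal 3 or with technical replicate 1 alone. EIF2B5, named outside the rule, had a mean of −0.97 ± 1.20.

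Factors that choose the start codon were higher in blood on average and none passed the test. EIF1AX, which holds the scanning subunit open, had ratios of −0.40, −0.36, −1.45 and 0.01 (mean −0.55 ± 0.63, limma adjusted p = 0.608). EIF1B, a close relative of the start codon factor EIF1, had ratios of −0.10, −1.13, −0.16 and −0.57 (mean −0.49 ± 0.47, limma adjusted p = 0.637). EIF5, which makes eIF2 hydrolyse its GTP, was measured by the pair of probes shown above, with mean ratios of −0.52 ± 0.55 and −0.78 ± 0.76. Both were below 0 in animals 1, 2 and 3 and above 0 in animal 4. EIF5B, which joins the large subunit, was 7.17, 8.55, 7.14 and 10.01 in endometrium and 8.74, 9.59, 9.83 and 9.79 in blood. Its ratio was −1.56, −1.04, −2.70 and 0.23, with a mean of −1.27 ± 1.21 (SD, n = 4, limma adjusted p = 0.342). Without animal 3 it was −0.79.

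**Figure D4:**
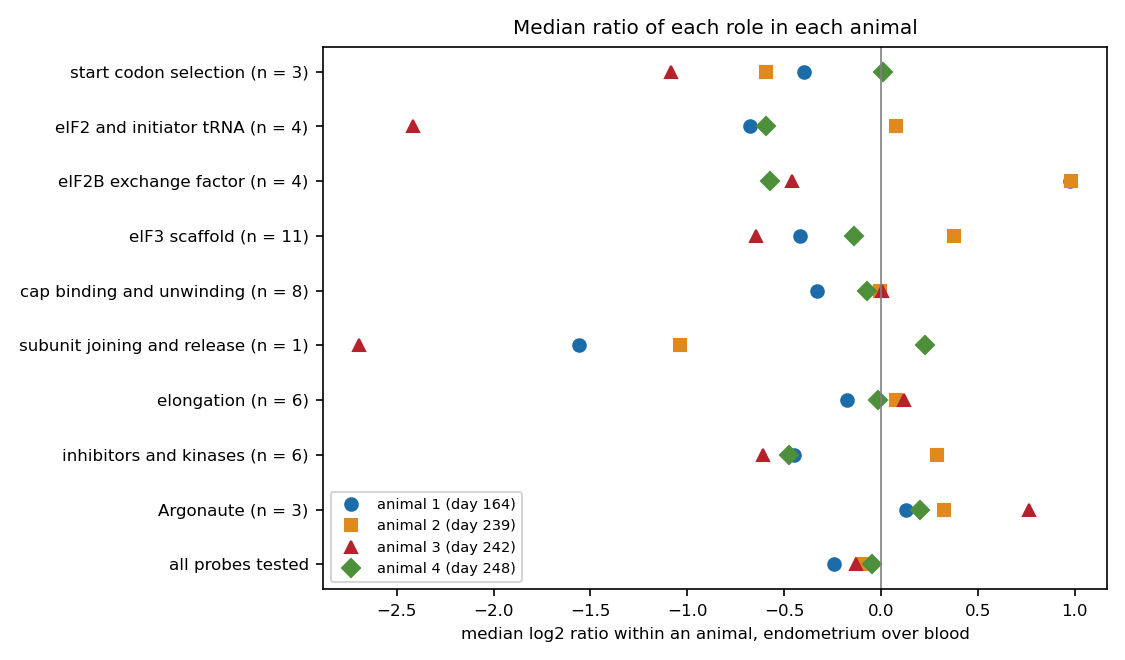
Median log2 ratio of endometrium over blood over the members of each role in each animal, with the median of all probes tested in the lowest row. The eIF2B medians, which include the EIF2B1 probe given to DDX55 by the reference table, are 0.98 in animals 1 and 2 and below 0 in animals 3 and 4. The role of eIF2 and initiator tRNA has a median of −2.42 in animal 3. It includes EIF2A at −3.32, beside EIF2S1, EIF2S2 and EIF2S3 at −1.30, −1.52 and −3.42.

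Of 8 cap-binding and unwinding factors, 6 had a mean ratio below 0, and the median of the 8 was −0.25. EIF4E, the cap-binding protein itself, was 12.09, 11.96, 13.41 and 12.89 in endometrium and 12.65, 12.91, 13.58 and 13 in blood. It was higher in blood in each animal by 0.11 to 0.95, with a mean of −0.45 ± 0.39 (SD, n = 4, limma adjusted p = 0.665). EIF4E2, a relative linked to repression, was higher in blood in each animal too (mean −0.51 ± 0.44, limma adjusted p = 0.619). EIF4G1, the scaffold that ties cap, helicase and eIF3, had ratios of −0.02, −0.04, −1.86 and −0.10, so that its mean of −0.51 ± 0.90 was −0.06 without animal 3. EIF4G2 and EIF4G3 had means of −0.02 ± 0.28 and 0.16 ± 0.37. EIF4A2, an RNA helicase, had ratios of 0.73, 1.16, 1.31 and −0.63 (mean 0.64 ± 0.88, limma adjusted p = 0.577). The brighter EIF4A1 probe, described in the files as SENP3, had a mean of −0.05 ± 0.29. The other, described as EIF4A1, was higher in blood in each animal, with a mean of −0.80 ± 0.62 (limma adjusted p = 0.446).

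EIF4B, which assists the helicase, differed between animals in both tissues. Its level was 4.68 in endometrium and 6.17 in blood of animal 1, and between 11.23 and 12.61 in either tissue of the other 3 animals. The probe was well above background in all 16 channels. Its ratio was −1.49 in animal 1 and 0.24, −0.63 and 0.08 in animals 2, 3 and 4, with a mean of −0.45 ± 0.79 (limma adjusted p = 0.708).

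Of 6 elongation factors tested, 4 had a mean ratio below 0 and 2 above, from −0.70 for EEF1G to 0.66 for EEF1D, and none passed the test. EEF1A1, which brings aminoacyl-tRNA to the ribosome, was 15.80, 16.35, 16.10 and 16.36 in endometrium and 16.05, 16.10, 16.16 and 16.32 in blood. The mean ratio was −0.01 ± 0.21 (SD, n = 4, limma adjusted p = 0.997), with a 95% interval from −1.04 to 1.03, and its sign turned under 5 of 16 settings, centring among them. The subunits that reload eEF1A were spread about 0. EEF1B2 had a mean of 0.24 ± 0.24 and EEF1G of −0.70 ± 1.22. EEF1D was 16.62, 16.82, 16.77 and 16.55 in endometrium and 15.57, 15.83, 16.20 and 16.53 in blood, with no overlap of the tissues although animal 4 differed by 0.02 alone. Its mean was 0.66 ± 0.48 (limma adjusted p = 0.515). EIF5A, the hypusine-bearing factor that relieves stalled ribosomes, was higher in blood in each animal, by 1.27 in animal 3 and by 0.12 to 0.25 in the others (mean −0.47 ± 0.54, limma adjusted p = 0.663). EEF1E1, a part of the aminoacyl-tRNA synthetase complex, ran from −3.07 in animal 3 to 0.88 in animal 4.

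The 3 Argonaute genes had mean ratios above 0. AGO4 was 14, 14.12, 14.18 and 12.20 in endometrium and 13.84, 11.97, 12.18 and 11.99 in blood. Animals 2 and 3 had ratios of 2.15 and 2.00 and animals 1 and 4 of 0.16 and 0.20, for a mean of 1.13 ± 1.09 (SD, n = 4, limma adjusted p = 0.369). AGO1 was higher in endometrium in each animal, by 0.13 to 0.76 (mean 0.35 ± 0.29, limma adjusted p = 0.744), and AGO3 ran from −1.62 in animal 3 to 1.44 in animal 4. Without these 3 genes and the 3 whose probe is also given to another gene, the median of the remaining 40 members tested was −0.40, a subset chosen after the values were seen.

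Probes that carry a symbol of this kind in other columns or under another name numbered 23. Of these, 21 were tested and none passed an unadjusted p of 0.05 (limma). Among all probes tested, 7.98% passed it with a ratio above 0, and 8.05% with a ratio below 0. The 23 probes added 16 genes, 14 with a mean ratio below 0 and 2 above, beside 56.7% of all probes below 0. With these genes the median over 62 genes was −0.44. Among the 14 were EEF1AKMT2 and EEF2KMT, at −0.49 and −0.07, which are methyltransferases of eEF1A and eEF2 and not translation factors. In EIF4A3 and EIF4E1B, as in EIF2S2, the levels did not overlap and blood was on top, beside 3.37% of all probes. The highest endometrial level was 15.40 in EIF4A3 and 10.04 in EIF4E1B, and the lowest blood level was 15.67 and 10.08. EEF2, which moves the ribosome along the mRNA, had ratios of 0.38, 0.23, −0.10 and 0.05 (mean 0.14 ± 0.21, limma adjusted p = 0.909). EIF6, which keeps the ribosomal subunits apart, had ratios of −0.63, −0.62, −2.82 and 0.01 (mean −1.01 ± 1.24, limma adjusted p = 0.438). The lowest mean ratio among the added genes was that of EIF3B, −1.66 ± 2.22, with −4.93 in animal 3. The largest difference between the technical replicates of EIF3B was 2.46, and 6 of its 8 endometrial channels were well above background.

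Genes around the translation factors were read from lists of known regulators and targets. Of 43 probes of other translation regulators tested, none passed the adjusted p (limma). At an unadjusted p of 0.05, 4 of the 43 were higher in endometrium and 2 higher in blood, beside 7.98% and 8.05% of all probes. The median of the 43 was −0.09. The 4 were IMPACT, an inhibitor of EIF2AK4 activation, at 2.03, DPH2 and DPH1, which make the diphthamide residue of eEF2, at 1.85 and 1.30, and the stress-induced factor ATF3 at 1.27. The 2 were PPP1R15B, a subunit of the eIF2 phosphatase, at −1.48, and the release factor ETF1 at −1.28, all as mean log2 ratios with the same sign in 4 of 4 animals. Of 10 targets of the integrated stress response, the programme set off by eIF2 phosphorylation, 7 had a mean ratio below 0 and 3 above, the median was −0.66, and ATF3 alone passed the unadjusted p. In animals 1 and 4 the median of these targets was 0.16 and 0.12, and in animals 2 and 3 it was −0.58 and −1.66. Of 10 mRNAs known for a 5′ terminal pyrimidine tract, a list made of translation factors, EIF3F alone passed the unadjusted p and the median was −0.06.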

How the data were processed

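The authors extracted median spot intensities with Agilent Feature Extraction (version 9.5 in the labels, 10.5.1.1 in the file headers), took logarithms, applied lowess to each array and quantile normalization to all channels, and deposited log2 values for 16 samples. Every column had a median of 8.00. The deposited scanner files also hold background-subtracted and dye-normalized intensities. The 16 files were 8 pairs of identical content, 1 pair per array. Mapping processed intensities by rank onto each column showed, for 100% of probes within 0.001 log2, that a column held its labelled dye from the array filed under its animal's other technical replicate. Each array held 44407 spots. Control spots aside there were 42990, and 65.2% to 82.9% of them were well above background in a channel.

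Spots and technical replicates were averaged, and 4 ratios were tested against 0 with limma 3.58.1 (lmFit, eBayes) in R 4.3.3, over probes with both spots well above background in 4 or more of the 8 channels of endometrium, blood or both. The labels give both tissues of a cow the same animal number, so the fit was paired. Deviations of the tissues from their means correlated at 0.24 to 0.63 within an animal. A gene was called at an adjusted p of at most 0.05. The steps were tested on simulated data. Genes named in the text were those called, up to 8 in each direction with the same sign in 4 animals, the brightest of each role and a short list of key factors, and the others were chosen after their values were seen. The members and lists were chosen with earlier results of these data known. Names came from the RefSeq table of assembly ARS-UCD2.0, which matched 9987 probes by gene identifier, 3519 by accession and 307 by gene name, and 7662 kept the name in the files. Alternatives changed the background correction, normalization, centring, filter, pairing, model, technical replicates, probes and animals.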

Additional observations from a re-analysis of the deposited data

Results flagged for a closer look

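In a group of 4 animals, a value was marked when its distance to the nearest other value, divided by the whole range, was above Dixon's 95% critical value for 4 values, which chance alone gives in about 1 group in 20. Among the ratios of the 46 members tested 3 were marked, or 6.52%, and all 3 were those of animal 3. The log2 ratio of EIF4G1 was −1.86 in that animal and −0.10 to −0.02 in the others. That of EIF2S3 was −3.42 against −0.68 to −0.26. That of EIF5A was −1.27 against −0.25 to −0.12.

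Among the levels in each tissue, 12 of 92 groups were marked, or 13%. In blood, animal 1 stood apart for 5 genes, with log2 levels of 13.84 for AGO4 (11.97 to 12.18 in the others), 11.53 for EIF2B3 (9.70 to 9.99), 12.99 for EEF2K (11.56 to 11.65), 6.18 for EIF4B (11.85 to 12.37) and 8.79 for EIF2AK1 (11.37 to 11.62). Animal 3 was at 15.56 for EIF3H (15.23 to 15.24), and animal 4 at 16.04 for EEF1B2 (15.68 to 15.71). In endometrium, animal 4 was at 12.20 for AGO4 (14 to 14.18) and at 16.25 for EIF3D (15.50 to 15.56). Animal 2 was at 14.04 for EIF2S2 (13.91 to 13.92), at 12.25 for EIF2B1 (10.44 to 10.74) and at 9.97 for EIF2AK4 (7.04 to 7.24). Animal 1 was at day 164 of pregnancy and the others between day 239 and day 248, so day and animal cannot be told apart.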

How the results depend on the processing

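No member passed an adjusted p of 0.05 under any of 18 alternatives, with a lowest adjusted p among the members between 0.0884 and 0.449 (limma, and the study's analysis of variance without pooling). With the analysis of variance, and without animal 4, 0 of all 16653 probes passed, so the absence of members there tells nothing about them. With normexp, 11 of 16651 probes passed. The median log2 ratio of the members kept its sign under all 18, between −0.44 and −0.06. Leaving out each animal in turn moved that median between −0.35 and −0.06, the count higher in endometrium at an unadjusted p of 0.05 between 0 and 1, and the count higher in blood between 0 and 3. Of all probes, 5.93% to 8.02% were then higher in endometrium at that p, and 4.56% to 8.04% were higher in blood. Without animal 2 neither EEF2K nor EIF3F passed the unadjusted p, and without animal 1 EEF2K alone did.

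The count higher in endometrium was 2 with a dye term and the animal as a random block, where 8.72% of all probes were higher. In the paired fit it was 1. The count higher in blood was 2 with normexp, beside 8.63% of all probes, and 3 without background correction, beside 8.88%. It was 3 among probes well above background in all channels, beside 9.91% of such probes. With the dye term and random block it was 4, beside 10.6% of all probes, and with technical replicate 2 only it was 2, beside 8.77%. Without the animal as a replicate block, an unpaired fit of 4 against 4, the count higher in blood was 0, beside 5.29%. The pairing moved no other count. The causes of these differences were not tested.

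Of the 367 values that 23 named members took under 16 of these alternatives, 12 turned the sign, all of them of means within 0.31 of 0. EEF1A1 was 0.0197 with the scanner's processed signals, 0.125 with centring and 0.0419 with technical replicate 2 only, and between −0.0908 and 0.0771 with 1 animal left out, with the sign turned without animal 1 and without animal 3. EIF2B4 was −0.0518 with technical replicate 1 only, and between −0.0715 and 0.152 with 1 animal left out, turned without animal 2 and without animal 3. EIF3K was −0.0118 with technical replicate 1 only, and between −0.0882 and 0.253 with 1 animal left out, turned without animal 2 and without animal 3. EIF2S1 was between −0.527 and 0.0211 with 1 animal left out, turned without animal 3. The alternatives on which genes are counted, 2 in number, were chosen after seeing the data.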
